A study of Mus musculus with 8 samples.

Results

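Adenosine and prostaglandin D2 are sleep-promoting signals of the brain, and 9 genes of the 2 systems are described here in mouse brain RNA. They were taken by exact gene symbol from a table of 21959 genes, and all 9 were present and passed the filter on low counts. The genes are the ectonucleotidase Nt5e, the nucleoside transporter Slc29a1, the adenosine-removing enzymes Adk and Ada, the adenosine receptors Adora1, Adora2a and Adora2b, the prostaglandin D synthase Ptgds and the prostaglandin D receptor Ptgdr. The study asked how isoliensinine, an alkaloid of the lotus seed embryo, improves sleep in mice. The 8 libraries are 4 labelled Model, whose treatment label is PCPA (para-chlorophenylalanine, which blocks serotonin synthesis), and 4 labelled IsoL, whose treatment label is isoliensinine; genotype is WT in both. The design text names female ICR mice, 7 days of dosing, IsoL doses of 12.5, 25 and 50 mg/kg, pentobarbital 40 minutes after the final dose, and hypothalamus, while the tissue label is brain. Which IsoL dose was sequenced, whether IsoL mice also had PCPA, and the age of the mice are not in the labels. Nothing states that libraries of a group are separate mice, so the p-values cover only how these libraries vary among themselves, possibly for technical reasons.

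Adenosine builds up outside cells during wakefulness, when released ATP is broken down step by step to AMP and then, by CD73 (the Nt5e product), to adenosine. It acts on the Adora1 receptor, which inhibits neurons, and on the Adora2a receptor, which stimulates adenylyl cyclase; caffeine blocks both. Prostaglandin D2 is made in the brain by the Ptgds product, which is abundant in the leptomeninges, choroid plexus and oligodendrocytes, and its receptor DP1 on the ventral brain surface is known to raise extracellular adenosine and so to engage Adora2a receptors of sleep-active preoptic neurons.

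Summed counts were 14262836 to 15886850 in Model and 15731923 to 21620466 in IsoL. Reads of the Y-linked genes Ddx3y, Uty, Kdm5d and Eif2s3y were present in all 8 libraries (537 to 3385 counts), which goes against the stated sex. Hypothalamic markers (12 genes, 2 of them with a higher mean in IsoL) were all detected. Their summed level was 185 to 218 CPM (counts scaled for library size) in Model and 72.5 to 150 in IsoL. By Model mean, the peptide genes Hcrt (53.8 CPM, against 26.3 in IsoL) and Avp (42.6, against 19.4) led this sum. Avp spanned 10.2 to 76.6 CPM within Model. Choroid plexus epithelial markers (12 genes, 11 of them with a higher mean in IsoL) summed to 75.9 to 79.9 CPM in Model. IsoL 1 reached 824, IsoL 2 reached 718, IsoL 3 was at 129 and IsoL 4 at 74.5. Most of the Model sums was Prlr (41.9 to 51.2 CPM), and most of the sums of IsoL 1 and IsoL 2 was Ttr (609 and 521 CPM, against 1.06 to 4.59 in Model). Of these markers Aqp1 was at 0 in Model 2. Cortical and hippocampal markers (8 genes, 7 with a higher mean in IsoL) summed to 962 CPM in IsoL 1 and 926 in IsoL 2, against 487 to 618 in the other 6 libraries, with Emx1 at 0 in Model 3 and IsoL 3. IsoL 1 and IsoL 2 thus stand apart in choroid plexus and cortical markers, and the change of each member without them is given beside its main value. IsoL 3 and IsoL 4 also lay below all Model libraries in the hypothalamic sum, at 150 and 127 CPM. Leaving IsoL 1 and IsoL 2 out therefore does not match the groups in the hypothalamic sum. Whether the sampled region or the RNA level of these markers differed cannot be told apart. The part of these differences in the results was not tested. In bulk tissue, fewer cells of a type and less RNA per cell cannot be told apart.

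Per gene length, the 9 genes spanned a wide range. Ptgds stood alone at the top with 321 FPKM on average over the 8 libraries (FPKM scales reads to gene length and library size), ranging from 82.6 to 602. Adora1 followed at 16.1 FPKM (14.5 to 17.4), above every value of the next gene. Adk at 6.90 FPKM (6.18 to 7.71) and Slc29a1 at 6.20 (5.47 to 6.74) overlapped each other. Adora2b, at 3.999 FPKM (2.55 to 4.77), lay below all values of Slc29a1 and above all values of Nt5e. Lowest were Nt5e at 0.788 FPKM (0.710 to 0.897), Ada at 0.603 (0.377 to 0.878), Adora2a at 0.514 (0.275 to 0.903) and Ptgdr at 0.338 (0.199 to 0.454), where each neighbour in the order overlapped the next. Among the tested genes, Ptgds ranked at the 99.8th percentile by mean FPKM and Ptgdr at the 4.33rd, so the synthase and its receptor lay near opposite ends. The levels depend on the single gene length that the deposited table gives, and are a description with no test.

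**Figure D1:**
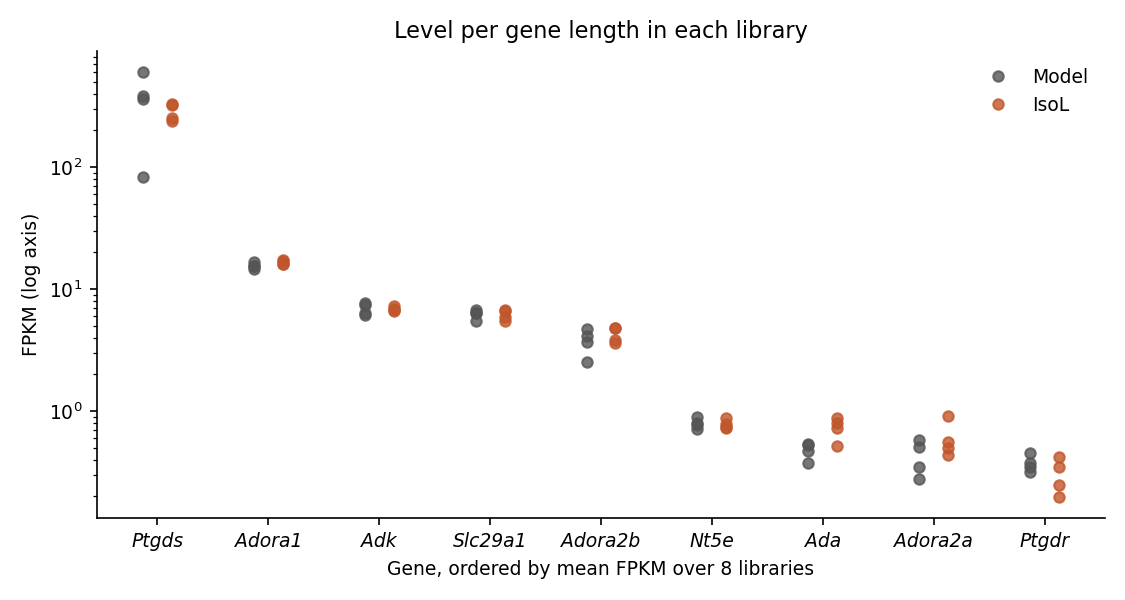
FPKM of each member (log axis) in the 4 Model and 4 IsoL libraries, 1 point per library, genes ordered by mean level. Ptgds lies between 82.6 and 602 FPKM and is the most variable, while Nt5e, Ada, Adora2a and Ptgdr all lie below 1 FPKM.

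No member passed the test between IsoL and Model. In edgeR's quasi-likelihood test 0 of the 9 passed an adjusted p of 0.05, with adjusted p from 0.360 to 0.966, beside 0.275% of the 14536 genes tested (17 higher in IsoL, 0.117%, and 23 lower, 0.158%). At an unadjusted p under 0.05 there was 1 member, Ada, beside 13.2% of all genes. The 2 groups of libraries overlapped for all 9 members, whereas they did not overlap for 8.48% of all genes. The count of members was also 0 in DESeq2 and in limma voom, and with each library left out in turn. Of the 9, 4 had a fitted change above 0, as 49.5% of all tested genes did, and 5 below, with a median log2 change of -0.01 beside -0.00146 over all tested genes.

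**Figure D2:**
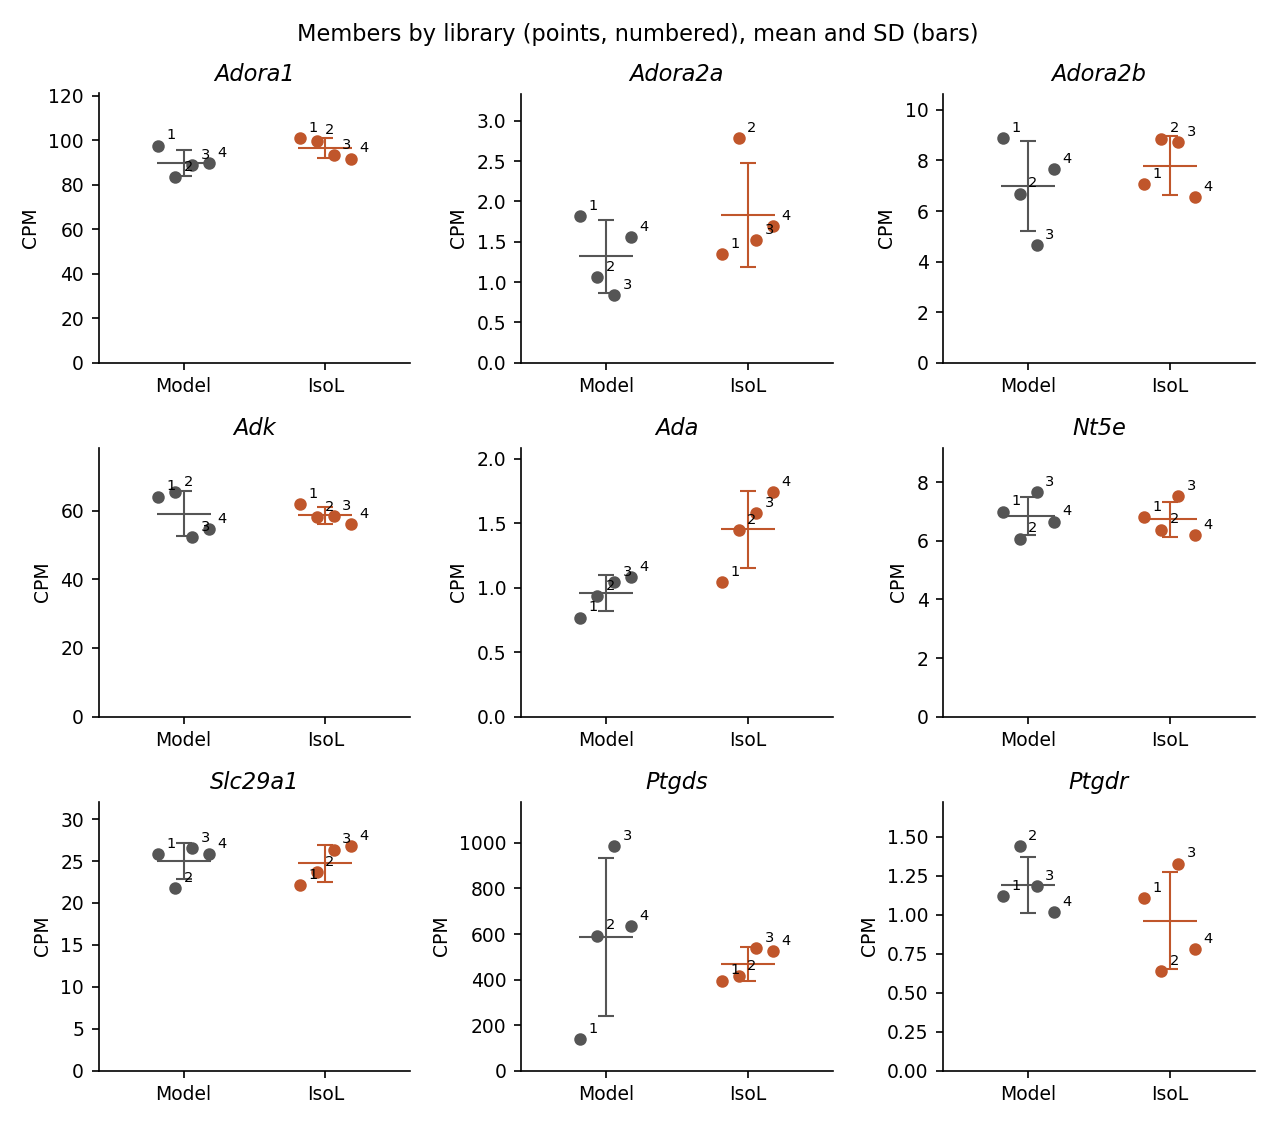
CPM of the 9 members in each library (points numbered by replicate), with the mean (horizontal bar) and SD of the 4 libraries of a group. The groups overlap in every panel; Model 1 is the lowest and Model 3 the highest library for Ptgds.

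Nt5e, whose product makes extracellular adenosine, was nearly equal in the group means. Nt5e (ENSMUSG00000032420, chromosome 9, 88209250 to 88254145 on the plus strand as the deposited table has it, with a genome build not given in the sources used here) read 6.99, 6.07, 7.65 and 6.65 CPM in Model 1 to 4 and 6.81, 6.37, 7.52 and 6.18 in IsoL 1 to 4. All 8 values lay within a narrow band, and the groups interleaved. The means were 6.84 ± 0.660 CPM (SD, n = 4) and 6.72 ± 0.594, a log2 change of -0.03 (SE 0.13, edgeR adjusted p = 0.950), and the 95% interval of the fold ran from 0.812 to 1.19. The change of Nt5e was -0.0016 with IsoL 3 and 4 as the only IsoL libraries (adjusted p = 0.998).

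Slc29a1 encodes ENT1, the equilibrative transporter that carries adenosine across membranes in either direction along its gradient. Slc29a1 (ENSMUSG00000023942, chromosome 17, 45896126 to 45910532, minus strand) read 25.8, 21.8, 26.6 and 25.8 CPM in Model and 22.1, 23.6, 26.4 and 26.8 in IsoL. Model 2 and IsoL 1 were the low libraries, 1 in each group. The log2 change was -0.01 (edgeR, adjusted p = 0.966, with a 95% interval of -0.20 to 0.18), and it was 0.09 with IsoL 3 and 4 as the only IsoL libraries (adjusted p = 0.855). By the correlation of log CPM over the 8 libraries, the gene most like Slc29a1 was Sap18 (r = 0.991), with Rgs9 (0.969), Pck2 (0.967) and Cacna1f (0.961) also among the nearest. These are among the highest of 14535 genes compared over 8 libraries of shared depth and tissue mix, so values near 1 arise by selection.

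Adenosine is removed inside cells by 2 enzymes, adenosine kinase, which returns it to AMP, and adenosine deaminase, which converts it to inosine. Adk (ENSMUSG00000039197, chromosome 14, 21102642 to 21498637, plus strand) read 64.1, 65.3, 52.2 and 54.7 CPM in Model and 61.9, 58.0, 58.5 and 56.0 in IsoL. The Model libraries held both the highest and the lowest values, and all IsoL libraries lay between them. Its means were 59.1 ± 6.58 CPM (SD, n = 4) and 58.6 ± 2.46, a log2 change of -0.01 (edgeR, adjusted p = 0.957, with a 95% interval of -0.17 to 0.14). With IsoL 3 and 4 alone against Model the change of Adk was -0.05 (adjusted p = 0.928). Astrocytes hold most of the kinase in adult brain, and their markers (8 genes, none at 0, 7 with a higher mean in IsoL) summed to 3334 to 3838 CPM in Model and 3956 to 4022 in IsoL, without the overlap seen for Adk. Slc1a2 led that sum (mean 1923 CPM in Model and 2195 in IsoL). Of the single markers only Slc1a2 and Aqp4 did not overlap, higher in IsoL, the pattern of 4.05% of tested genes. Ada (ENSMUSG00000017697, chromosome 2, 163568504 to 163592159, minus strand) was far scarcer, with 11, 15, 15 and 16 counts in Model and 17, 25, 25 and 38 in IsoL. On the CPM scale it read 0.769, 0.938, 1.04 and 1.09 in Model and 1.04, 1.45, 1.58 and 1.74 in IsoL. Of the IsoL libraries, 3 lay above all Model libraries and IsoL 1 fell among them. The fitted log2 change of Ada was 0.60 (SE 0.27, 95% interval 0.02 to 1.19, unadjusted p = 0.0441), which did not pass over all genes (edgeR adjusted p = 0.360). With 1 library left out it stayed between 0.50 and 0.73, and it was 0.79 with IsoL 3 and 4 alone against Model (adjusted p = 0.536). The level of Adk per gene length was 7.55 to 19.6 times that of Ada in single libraries.

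Among the receptors, Adora1 encodes the main inhibitory adenosine receptor of the brain. Adora1 (ENSMUSG00000042429, chromosome 1, 134126961 to 134163169, minus strand) read 97.6, 83.4, 88.9 and 89.7 CPM in Model and 101, 99.8, 93.2 and 91.7 in IsoL. IsoL 1 and IsoL 2 were the highest, and Model 1 exceeded IsoL 3 and IsoL 4. The means were 89.9 ± 5.82 and 96.4 ± 4.59 CPM (SD, n = 4), a log2 change of 0.10 (SE 0.06, edgeR adjusted p = 0.473). The 95% interval of the fold, 0.985 to 1.17, is the tightest of the receptors. With IsoL 3 and 4 as the only IsoL libraries, the log2 change was 0.04 (adjusted p = 0.917). The summed level of the cortical and hippocampal markers moved with Adora1 over the 8 libraries (r = 0.830 on the log scale, a description). Other lists were also related to it: r was 0.740 for choroid plexus, -0.651 for hypothalamic and -0.607 for striatal markers. Without Model 1 the cortical and choroid plexus lists were nearly level, at 0.888 and 0.887. The part of these lists in the Adora1 values was not tested. The 5 genes most like Adora1 were Rbfox1, a neuronal splicing regulator (r = 0.979), Fbxo36 (0.974), Lingo4 (0.968), Rprml (0.964) and Slc8a2, a sodium-calcium exchanger (0.962), again the highest of 14535. The opposite-strand gene Mybph overlaps Adora1 and held 1 to 5 counts per library.

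Adora2a encodes the receptor most abundant in striatal projection neurons of the indirect pathway and also linked to sleep-active preoptic neurons. Adora2a (ENSMUSG00000020178, chromosome 10, 75152711 to 75170618, plus strand) had 26, 17, 12 and 23 counts in Model and 22, 48, 24 and 37 in IsoL. In CPM these were 1.82, 1.06, 0.834 and 1.56 in Model and 1.35, 2.78, 1.52 and 1.70 in IsoL. IsoL 2 was the highest library and Model 3 the lowest, and the other 6 overlapped. The means were 1.32 ± 0.450 and 1.84 ± 0.646 CPM (SD, n = 4), with a log2 change of 0.48 (SE 0.31, edgeR adjusted p = 0.549). At these counts the 95% interval of the fold was wide, 0.874 to 2.23, and the log2 change dropped to 0.22 without IsoL 2 (adjusted p = 0.838). It was 0.29 with IsoL 3 and 4 alone against Model (adjusted p = 0.873).

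The summed level of the markers of striatal projection neurons, where Adora2a is richest, was lower in IsoL by a small margin. It was 248 to 252 CPM in Model and 228 to 235 in IsoL (9 genes, 3 with a higher mean in IsoL, none at 0). The most abundant of them went opposite ways, Pde10a from a mean of 83.0 CPM in Model to 85.6 in IsoL and Tac1 from 46.2 to 38.7. Adora2a did not follow the sum: over the 8 libraries its correlation with that sum was -0.545 on the log scale. Its 5 most alike genes were Psmb7, a proteasome subunit (r = 0.964), Hmcn1 (0.958), Slitrk3 (0.943), Ttc39c (0.940) and Glmn (0.934), at 9.39 CPM or more in every library against 0.834 to 2.78 for Adora2a. Adora2a rests on 12 to 48 counts per library, and these likenesses are a description only.

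Adora2b encodes a receptor of lower affinity for adenosine. Adora2b (ENSMUSG00000018500, chromosome 11, 62139810 to 62157279, plus strand) read 8.88, 6.69, 4.66 and 7.67 CPM in Model and 7.06, 8.86, 8.72 and 6.55 in IsoL. Model 1 matched the highest IsoL libraries, and Model 3 was the lowest of all. The log2 change was 0.16 (edgeR, adjusted p = 0.746, with a 95% interval of -0.23 to 0.54), from 0.01 to 0.29 with 1 library left out, and 0.12 with IsoL 3 and 4 alone against Model (adjusted p = 0.925). Per gene length Adora2b exceeded Adora2a in all 8 libraries, by 5.29 to 10.4 times, and Adora1 exceeded Adora2a by 19.0 to 56.4 times. Adora1 was thus the leading adenosine receptor transcript in every library and Adora2a the least of the 3 members.

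The synthase gene varied most between libraries among the 9 members. Ptgds (ENSMUSG00000015090, chromosome 2, 25356721 to 25360058, minus strand), the lipocalin-type synthase, read 139, 593, 985 and 635 CPM in Model and 395, 417, 538 and 524 in IsoL. The extremes were both Model libraries, Model 1 with the least and Model 3 with the most, and the 4 IsoL libraries lay between. The highest was 7.11 times the lowest, on 1983 counts in Model 1 and 14165 in Model 3. The means were 588 ± 347 and 468 ± 72.8 CPM (SD, n = 4), with a log2 change of -0.33 (SE 0.54, edgeR adjusted p = 0.840). The 95% interval of the fold, 0.320 to 1.98, is the widest of all members. Single Model libraries set the estimate: the log2 change was -0.65 without Model 1 (adjusted p = 0.320) and turned to 0.05 without Model 3 (adjusted p = 0.980). With IsoL 3 and 4 as the only IsoL libraries it was -0.15 (adjusted p = 0.974).

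Ptgds moved with the markers of leptomeningeal and vascular fibroblasts. Their summed level (10 genes, none at 0 in any library, 3 with a higher mean in IsoL) was 59.4, 183, 280 and 177 CPM in Model and 158, 121, 156 and 199 in IsoL. Model 1 was the lowest and Model 3 the highest of the 8 libraries for the sum, and also for each of the 10 markers, as it was for Ptgds. Ogn, a small leucine-rich proteoglycan of meningeal fibroblasts, was at 1.61 CPM in Model 1, with 18.9 to 36.6 in Model 2 to 4. Aldh1a2, the retinoic acid synthesis enzyme of meninges, was at 2.17 CPM there and at 13.98 to 24.2 in the same 3 libraries. Col1a2, a collagen chain, was at 15.0 CPM against 35.0 to 56.2. The correlation of Ptgds with the summed level was 0.967 over 8 libraries and 0.875 over the 7 without Model 1, on the log scale and as a description of libraries that share a tissue mix. Without Model 1 the fibroblast list did not stand alone: the correlation of Ptgds was then 0.839 with the hypothalamic markers and 0.799 with the striatal markers, against 0.116 and 0.0612 over all 8 libraries.

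Divided by the fibroblast sum, a ratio chosen after the values were seen, Ptgds spanned less. The ratio was 2.33, 3.23, 3.52 and 3.58 in Model and 2.51, 3.45, 3.45 and 2.63 in IsoL, so the highest was 1.54 times the lowest, against 7.11 times for Ptgds itself. The narrower span follows from the correlation of the sum with Ptgds given above and is not a separate result. The means of the ratio were 3.17 ± 0.576 and 3.01 ± 0.510 (SD, n = 4), and the groups overlapped. The markers of the other known sources of Ptgds RNA had another order. Oligodendrocyte markers (10 genes, none at 0) summed to 14830 to 15447 CPM in Model and 15092 to 16641 in IsoL, a span of 1.12 times, with a correlation to Ptgds of -0.0405 over the 8 libraries and -0.798 without Model 1. For the choroid plexus markers these correlations were -0.136 and -0.750. The choroid plexus markers, 824 and 718 CPM in IsoL 1 and 2 against 75.9 to 79.9 in Model, accompanied the lowest Ptgds values of the IsoL group. The share of each cell type in the Ptgds reads was not tested.

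**Figure D3:**
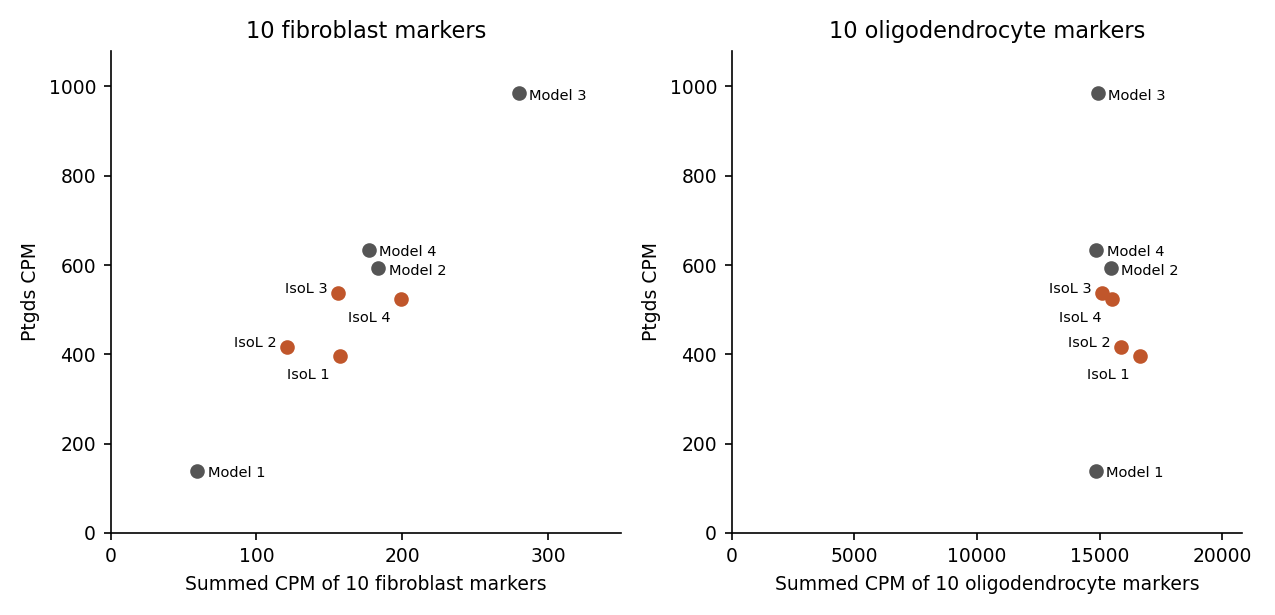
Ptgds CPM against the summed CPM of 10 fibroblast markers (left) and 10 oligodendrocyte markers (right), 1 labelled point per library. Ptgds rises with the fibroblast sum from Model 1 (139 and 59.4 CPM) to Model 3 (985 and 280 CPM), while the oligodendrocyte sum stays between 14830 and 16641 CPM.

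The genes whose pattern was most like that of Ptgds over the 8 libraries were Osr1, a transcription factor of mesenchyme (r = 0.997), Slc22a6, an organic anion transporter (0.991), Crabp2, a retinoic acid binding protein (0.990), Aldh1a2 (0.983) and Ogn (0.982). The last 2 belong to the fibroblast marker list. All 5 are the highest of 14535 genes compared over the 8 libraries, so values near 1 arise by selection. No likeness of single genes was taken without Model 1. Osr1 ranged from 0.349 to 4.73 CPM, Slc22a6 from 0.909 to 17.2 and Crabp2 from 0.349 to 5.84. None of the 5 passed between the groups, with edgeR adjusted p from 0.761 to 0.890.

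Ptgdr encodes DP1, the receptor through which prostaglandin D2 promotes sleep. Ptgdr (ENSMUSG00000071489, chromosome 14, 45088692 to 45096832, minus strand) had 16, 23, 17 and 15 counts in Model and 18, 11, 21 and 17 in IsoL. In CPM it read 1.12, 1.44, 1.18 and 1.02 in Model and 1.10, 0.637, 1.33 and 0.779 in IsoL. IsoL 2 and IsoL 4 were the lowest, and the other 6 libraries overlapped. The log2 change was -0.32 (SE 0.30, edgeR adjusted p = 0.690), and the 95% interval of the fold, 0.509 to 1.26, is wide at these counts. The estimate ran from -0.51 to -0.17 with 1 library left out, and it was -0.21 with IsoL 3 and 4 as the only IsoL libraries (adjusted p = 0.920).

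**Figure D4:**
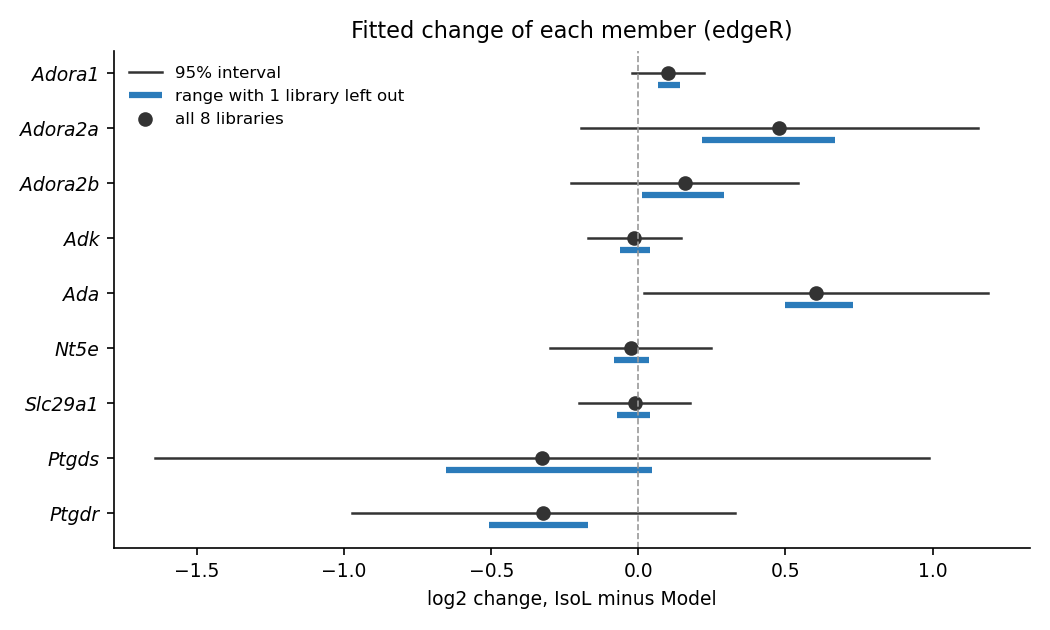
Fitted log2 change of IsoL minus Model for each member, with its 95% interval (thin line) and the range of the estimate with 1 library left out (thick line). All intervals but that of Ada (0.02 to 1.19) include 0, and that of Ptgds is the widest.

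The other genes of adenosine handling were read from a list of 27, of which 21 were tested. None passed in edgeR, 4 of the 21 had an unadjusted p under 0.05 beside 13.2% of all tested genes, 9 were above and 12 below Model, and the median log2 change was -0.01. Adenosine is also formed from S-adenosylhomocysteine by the Ahcy product. Ahcy read 29.8, 26.6, 30.1 and 29.1 CPM in Model and 19.3, 20.7, 27.9 and 20.7 in IsoL. IsoL 3 lay among the Model libraries and the other 3 below all of them. Its log2 change was -0.39 (SE 0.10, edgeR adjusted p = 0.133), and the gene passed without IsoL 3 (log2 -0.52, adjusted p = 0.0340) and in DESeq2 (adjusted p = 0.0470). It did not pass in limma voom (adjusted p = 0.0560) or with any other library left out (edgeR adjusted p up to 0.334).

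Adal, an adenosine deaminase-like enzyme that acts on methylated AMP, read 33.1, 34.4, 32.3 and 34.6 CPM in Model and 28.6, 29.8, 29.2 and 27.8 in IsoL. All 4 IsoL libraries lay below all Model libraries, the pattern of 4.42% of tested genes, and the log2 change was -0.22 (SE 0.06, edgeR adjusted p = 0.142). Lcmt2 overlaps it on the opposite strand with 54 to 85 counts per library, and its reads cannot be separated because no strand marking is stated. Adcy5, the adenylyl cyclase that Adora2a receptors drive in striatum, went from 200 ± 5.66 to 184 ± 5.26 CPM (SD, n = 4) without overlap between the groups (log2 -0.12, edgeR adjusted p = 0.245). Nt5c1a, a cytosolic nucleotidase that makes adenosine from AMP, was at 3.24 ± 0.598 and 4.21 ± 0.135 CPM (SD, n = 4), also without overlap (log2 0.38, edgeR adjusted p = 0.369); for higher values in IsoL that pattern held for 4.05% of tested genes.

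Upstream of Nt5e, the ectonucleotidase Entpd1 (CD39), which takes ATP to AMP, showed a log2 difference of 0.06 (edgeR, adjusted p = 0.800, with a 95% interval of -0.12 to 0.25). The second equilibrative transporter, Slc29a2, had 0.06 as well (edgeR, adjusted p = 0.816, with a 95% interval of -0.14 to 0.26). The receptor gene Adora3 was too low to test, with 6 to 9 counts per Model library and 9 to 19 per IsoL library.

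Of 21 other prostanoid genes 18 were tested. None passed in edgeR, 4 of the 18 had an unadjusted p under 0.05 beside 13.2% of all tested genes, 8 were above and 10 below Model, and the median log2 change was -0.06. The smallest p belonged to Hpgd, the dehydrogenase that inactivates prostaglandins. Hpgd read 3.14, 4.07, 2.85 and 2.65 CPM in Model and 7.00, 5.68, 4.74 and 5.91 in IsoL. Every IsoL library lay above every Model library. The means were 3.18 ± 0.627 and 5.83 ± 0.926 CPM (SD, n = 4), a log2 change of 0.87 (SE 0.18, 95% interval 0.48 to 1.26), and the edgeR adjusted p was 0.0687. Hpgd passed without Model 2 (log2 1.02, adjusted p = 0.0197), without the filter on low counts (0.0406), in limma voom (0.0129) and in DESeq2 (0.00539). It did not pass in edgeR with DESeq2 size factors (adjusted p = 0.0697), with the replicate block (0.0777) or with any other library left out (up to 0.204). Over all genes, DESeq2 and limma voom passed 311 and 238, against 40 in the main edgeR fit. With IsoL 3 and 4 alone against Model the log2 change of Hpgd was 0.75 (adjusted p = 0.338). Its level also ran against the summed hypothalamic markers (r = -0.935 over the 8 libraries, log scale) and striatal markers (-0.932), and with the oligodendrocyte markers (0.870), and their part in the result was not tested.

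Ptgs2 (COX-2), the inducible enzyme that makes the precursor of prostaglandin D2 and is also a neuronal activity gene, read 2.17, 3.06, 1.74 and 2.17 CPM in Model and 5.03, 6.08, 3.60 and 2.66 in IsoL. IsoL 1 and IsoL 2 were the highest and IsoL 4 fell within the Model range. Its log2 change was 0.91 (SE 0.27, edgeR adjusted p = 0.165), and 0.44 with IsoL 3 and 4 alone against Model (adjusted p = 0.705). The choroid plexus markers followed the same libraries (r = 0.888 with Ptgs2 over 8 libraries, log scale). Ptgs2 was also related to the striatal (-0.824), hypothalamic (-0.820), oligodendrocyte (0.812) and cortical and hippocampal (0.717) sums. The part of these lists in the result was not tested. The constitutive Ptgs1 (COX-1) showed a log2 difference of -0.06 (edgeR, adjusted p = 0.924, with a 95% interval of -0.46 to 0.35).

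The other route to prostaglandin D2 is Hpgds, the haematopoietic-type synthase that microglia carry. Hpgds was at 9.16 ± 1.76 and 9.54 ± 1.32 CPM (SD, n = 4), which is 0.06 on the log2 scale (edgeR adjusted p = 0.887). Microglial markers (8 genes, none at 0) summed to 214 to 251 CPM in Model and 240 to 292 in IsoL, overlapping like Hpgds. Pla2g4a, the phospholipase that frees arachidonic acid, likewise stood at 0.06 (edgeR adjusted p = 0.884). Ptges3, a prostaglandin E synthase and HSP90 co-chaperone, had a value of -0.19 on that scale (edgeR adjusted p = 0.255), and Abcc4, a prostanoid exporter, of 0.23 (edgeR adjusted p = 0.361). The second prostaglandin D2 receptor, Ptgdr2, had 2 counts in the Model libraries and 3 in the IsoL libraries in all, under the limit of 3 counts per library in each, so Ptgdr was the only one of the 2 receptors that could be tested.

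**Figure D5:**
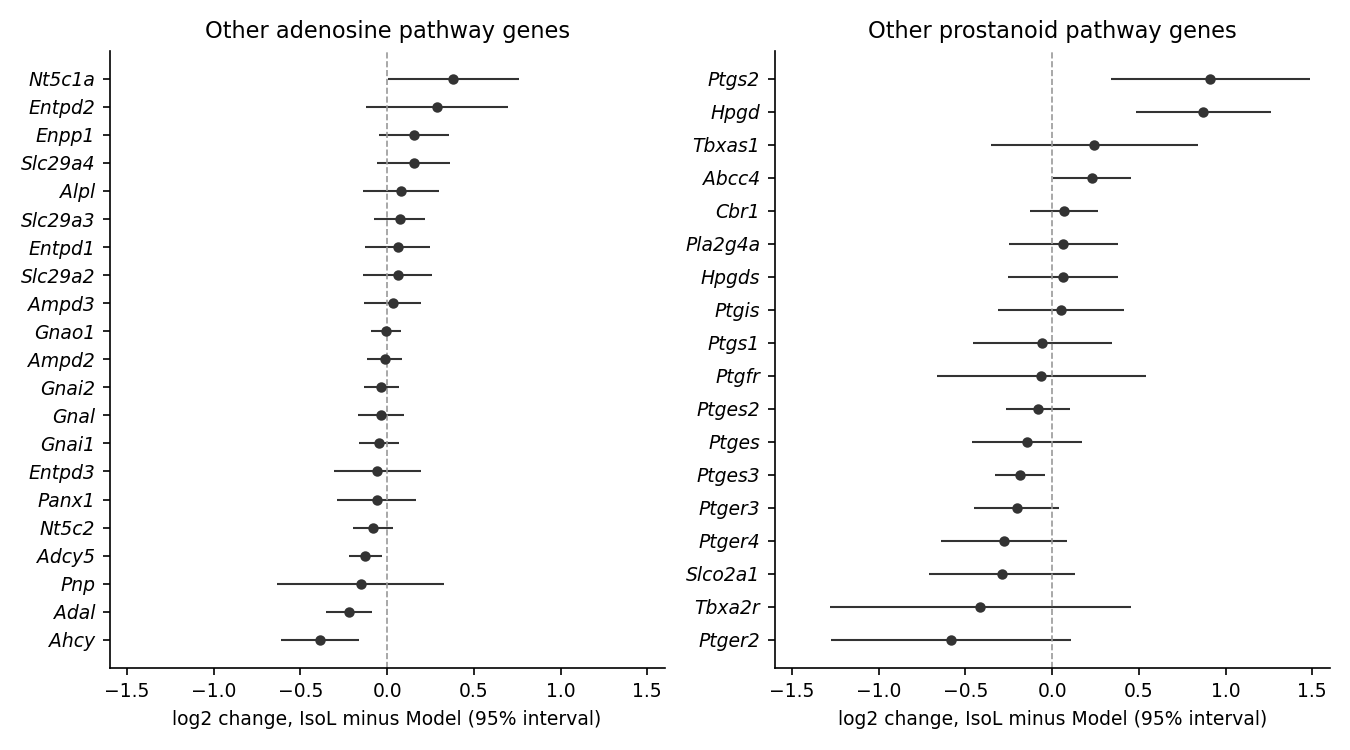
Fitted log2 change of IsoL minus Model with 95% intervals for the 21 other adenosine genes (left) and the 18 other prostanoid genes (right) that were tested. Ahcy, at -0.39, is the lowest on the left, and Ptgs2 (0.91) and Hpgd (0.87) are the highest on the right; none of these genes passed an adjusted p of 0.05 in edgeR.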

How the data were processed

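Polyadenylated RNA of 8 libraries was sequenced. The deposited table holds raw read counts per gene and the authors' FPKM (scaled to gene length and library size), per the file headers, with a gene length, another deposited value, behind the FPKM. The submitters' processing notes name fastp 0.22.0, HISAT2 2.1.0 and HTSeq 0.9.1; genome build and annotation: not given in the sources used here. No strand marking is stated.

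Tests used the counts: filterByExpr (minimum count 10) kept 14536 genes, TMM scaling gave the CPM, and edgeR 4.0.16 (R 4.3.3, robust quasi-likelihood F-test) compared IsoL with Model, with Benjamini-Hochberg adjustment over all tested genes at 0.05. SE is the absolute log2 change over the square root of F. Log CPM for likeness used a prior count of 2. Levels between genes used FPKM. A floor of 3 counts equals 0.137 to 0.210 CPM and covers counting error only. No 2 libraries of a group were duplicates (smallest chi-square per degree of freedom 2.37). Named were the 9 members, from each pathway list the 4 of smallest p plus a fixed set, and the 5 genes most like each of 4 members (1 gene is not reported here), with markers named by abundance, a count of 0 or likeness. Members and lists were chosen with earlier results of these data known. One list gene was matched by synonym.

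Alternatives were DESeq2 size factors, no filter, a replicate block, each library left out, DESeq2 1.42.0 and limma voom (3.58.1). The limma voom fit gave each library a quality weight, which the other fits did not. On simulated counts for IsoL against Model (14433 genes, 50 changed per fold), edgeR recovered 38% at 1.25-fold, 80% at 1.5-fold, 88% at 2-fold and 98% at 3-fold, with 9 false among 161 calls. The changed genes were drawn only from those above a minimum mean count. Ptgdr and Ada lie below that minimum, so the rates do not describe what could be detected for them. For the other members the rates are averages over randomly drawn genes, each with its own spread, and give no rate for a single gene. Ptgds (SE 0.54) and Adora2a (SE 0.31, on 12 to 48 counts) had wide intervals, so large changes of these could have been missed.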

Additional observations from a re-analysis of the deposited data

Results flagged for a closer look

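Among 68 groups of 4 libraries (members, named pathway genes and marker sums), 4 held a library far from the other 3 by Dixon's test at the 95% level, about as many as the 1 in 20 that chance gives. Slc29a1 was at 21.8 CPM in Model 2, against 25.8 to 26.6 in the other Model libraries. Ahcy was at 27.9 CPM in IsoL 3, against 19.3 to 20.7 in the other IsoL libraries. Ptgdr2 was at 0.125 CPM (2 counts) in Model 2 and at 0 in the other Model libraries. The summed oligodendrocyte markers were at 15447 CPM in Model 2, against 14830 to 14915 in the other Model libraries.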

How the results depend on the processing

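No member passed in any setting. The count of all changed genes, 40, was 74 without the filter, 17 with the replicate block, 311 in DESeq2, 238 in limma voom and 6 to 146 with 1 library left out. The count of other adenosine genes was 1 in DESeq2 (Ahcy) and 0 to 1 with 1 library left out; that of other prostanoid genes was 1 in DESeq2, in limma voom and without the filter (Hpgd in each) and 0 to 1 with 1 library left out. Some estimates changed sign, among them that of Ptgds (-0.33 over all libraries), and none of these passed; the cause was not tested. In limma voom the log2 change of Adk was 0.0489 and that of Pla2g4a -0.0146. With IsoL 3 and 4 alone against Model, chosen after seeing the data, it was 0.0896 for Slc29a1, 0.105 for Ptgs1 and -0.0140 for Pla2g4a. With 1 library left out it ran from -0.0617 to 0.0401 for Adk, -0.0830 to 0.0375 for Nt5e, -0.0732 to 0.0386 for Slc29a1, -0.654 to 0.0459 for Ptgds, -0.00934 to 0.0974 for Entpd1, -0.0174 to 0.181 for Hpgds, -0.00733 to 0.196 for Pla2g4a and -0.191 to 0.0756 for Ptgs1. With the replicate block Ptgds was at -0.08 (adjusted p = 0.971); same-numbered libraries correlated by 0.0199 to 0.0696, so the numbers do not pair them, and 1 of 4 Model libraries correlated best with its own number. Ada, Adora2a and Ptgdr rest on 11 to 48 counts per library, which limits what could be detected.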
